A study of Mus musculus with 43 samples.

Results

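Cyp21a1, Cyp11b1, Cyp11b2 and Mc2r are genes of the adrenal cortex, and their transcripts were followed here in fetal and newborn mouse gonads. All probe sets that the array annotation assigned to these 4 genes were taken, 5 of the 45007 measured: 1455691_at and 1422333_at for Cyp21a1, 1456362_at for Cyp11b1, 1450574_at for Cyp11b2 and 1422926_at for Mc2r. The array carried probe sets with a single gene symbol for 18184 genes in all. Cyp11b1 and Cyp11b2 are paralogs that lie next to each other in the RefSeq gene table, where Cyp11b1 also overlaps Gml2. Whether their probe sets cross-hybridise was not tested.

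The adrenal cortex and the steroid cells of the gonad descend from a common primordium and share the first steps of steroid synthesis, from cholesterol import through side-chain cleavage by Cyp11a1. They part at progesterone, which 21-hydroxylase, the product of Cyp21a1, and then 11beta-hydroxylase, the product of Cyp11b1, turn into corticosterone in the mouse adrenal. Cyp11b2 encodes aldosterone synthase, which acts in the outermost cortical zone, and Mc2r encodes the receptor through which corticotropin drives the cortex. Wnt4 is a secreted signal of the fetal ovary and Foxl2 is a transcription factor of its granulosa cells, and ovaries without Wnt4 are known to hold cells that resemble those of the adrenal cortex.

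The data were 43 Affymetrix arrays in 15 groups, each array from the whole gonads of 1 mouse, dissected free of annexa. There were 3 arrays a group, and 2 in each E15 group. The control ovaries were Foxl2+/- at E13, Wnt4+/- at E15, and without a mutant allele in the labels, wild-type in the study's methods, at E16 and at birth (P0). Foxl2-/- ovaries were taken at E13, E16 and P0, and Foxl2+/- ovaries at E16. Ovaries without Wnt4 were taken at E15 and at P0, where the Wnt4-/- ovaries were also Foxl2+/- and another group was Wnt4-/- Foxl2-/-. Ovaries homozygous for the hypomorphic Kit allele Wv were taken at P0 with Foxl2+/- or Foxl2-/-. Testes were taken at E13 and P0, and by the study's methods the P0 testes came from Wnt4-null mice, so that 4 groups with 11 arrays lacked Wnt4. The E15 mice had another mixed strain background than the rest. Levels are given as signal, the deposited intensity divided by the array mean, which was the same for all arrays. The median probe set of an array lay at a signal between 0.18 and 0.295. In the Wnt4-/- and Wnt4-/- Foxl2-/- P0 ovaries the Wnt4 signal was 0.176 to 0.375, against 0.581 to 0.745 in wild-type P0 ovaries. Foxl2 was at 0.682 to 0.826 in the Wnt4-/- Foxl2-/- ovaries and at 14.7 to 16.8 in the wild-type ovaries. The Wnt4-/- P0 ovaries, which were Foxl2+/-, lay between them, at 5.13 to 5.9.

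Cyp21a1 was higher in each P0 ovary without Wnt4 than in any array of the other groups. With 1455691_at, the 3 Wnt4-/- ovaries had signals of 4.26, 2.38 and 2.07. The 3 Wnt4-/- Foxl2-/- ovaries had signals of 1.14, 1.15 and 3.94. The 3 wild-type P0 ovaries had signals of 0.0739, 0.0215 and 0.0119. The groups without Wnt4 thus lay entirely above the wild-type ovaries, and the 6 arrays, at 1.14 to 4.26, lay above all 37 others, at 0.0119 to 0.783. On the scale of log2(signal + 0.01), Cyp21a1 was 6.16 ± 0.53 (SE, n = 3 and 3) higher in Wnt4-/- than in wild-type ovaries by limma's moderated test (adjusted p = 2.46e-10). The wild-type signals lay close to the 0.01 added, and the size of the difference moved with it. For the Wnt4-/- Foxl2-/- ovaries the difference from wild type was 5.49 ± 0.53 (SE, n = 3 and 3, limma adjusted p = 1.71e-09). In these 2 comparisons 5.6% and 8.41% of all probe sets were called higher, and 13.7% and 18.3% were higher without overlap of the groups. The Wnt4-/- ovaries were also Foxl2+/-, so neither comparison with wild type separates Wnt4 loss from the Foxl2 genotype.

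**Figure D1:**
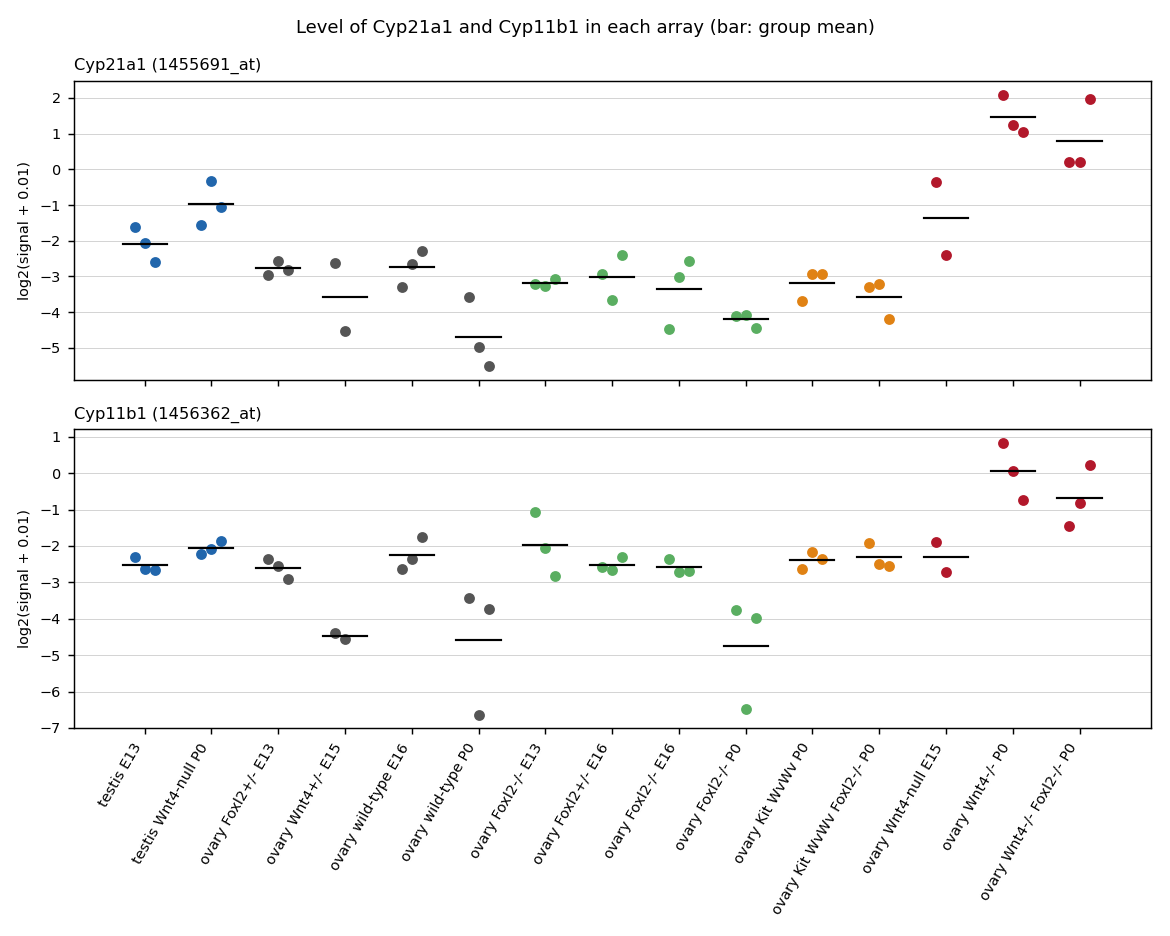
Level of Cyp21a1 (upper panel, 1455691_at) and Cyp11b1 (lower panel, 1456362_at) as log2(signal + 0.01) on the vertical axis in each of 43 arrays, arranged by the 15 groups on the horizontal axis, with a bar at each group mean. The points of the Wnt4-/- and Wnt4-/- Foxl2-/- P0 ovaries stand at 1.14 to 4.26 in signal for Cyp21a1, above every other array.

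Ranked by the mean of log2(signal + 0.01), the 4 groups without Wnt4 were the 4 highest of the 15 for Cyp21a1. Wnt4-/- ovaries came first and Wnt4-/- Foxl2-/- ovaries second, with overlapping arrays. The third were the Wnt4-null P0 testes, at signals of 0.329, 0.783 and 0.474, all below the second group. The Wnt4-null E15 ovaries, at 0.776 and 0.181, came next and overlapped both the P0 testes and the E13 testes. Of the 11 arrays without Wnt4, 10 exceeded the highest of the other 32, an E13 testis at 0.315. From the third rank down, each group overlapped the next, and the wild-type P0 ovaries were the lowest of all.

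The other Cyp21a1 probe set, 1422333_at, did not show this pattern. Its signal never exceeded 0.137 in any array, and in the Wnt4-/- P0 ovaries the arrays read 0.0106, 1.15e-05 and 0.0541. The difference from wild type was 0.07 ± 0.55 (SE, limma adjusted p = 0.969). The 2 probe sets of Cyp21a1 disagree here, and Cyp21a1 below refers to 1455691_at unless the dimmer one is named.

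Cyp11b1, which acts on the product of 21-hydroxylase, was also highest in the P0 ovaries without Wnt4. Its signals were 1.77, 1.04 and 0.588 in the Wnt4-/- ovaries and 0.359, 0.559 and 1.16 in the Wnt4-/- Foxl2-/- ovaries. The wild-type P0 ovaries had 0.0829, 7.3e-05 and 0.0659. Neither mutant group overlapped the wild-type arrays, one of which read almost nothing. Against wild type, 13.7% (Wnt4-/-) and 18.3% (Wnt4-/- Foxl2-/-) of all probe sets were higher without overlap, and 5.6% and 8.41% were called higher. Cyp11b1 was 4.65 ± 0.57 (SE, limma adjusted p = 3.95e-07) higher in Wnt4-/- ovaries and 3.92 ± 0.57 (SE, limma adjusted p = 2.98e-06) higher in Wnt4-/- Foxl2-/- ovaries, on the log2 scale. Without the near-zero wild-type array, replicate 2, the first difference was 3.63 and still called.

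The 6 Cyp11b1 signals reached down to 0.359, and among the other 37 arrays the highest was an E13 Foxl2-/- ovary at 0.47, while the other arrays of its group read 0.232 and 0.13. Below the 2 leading groups, 10 groups followed one another with overlap, with means of log2(signal + 0.01) between -1.98 and -2.61. The E15 controls and the wild-type and Foxl2-/- P0 ovaries formed the bottom, at -4.47 to -4.74, and their arrays did not overlap the group above. Unlike Cyp21a1, Cyp11b1 did not place all 4 groups without Wnt4 at the top, since the P0 testes were at rank 4 and the E15 Wnt4-null ovaries at rank 6.

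Mc2r, the corticotropin receptor, was dim throughout and differed less. The Wnt4-/- P0 ovaries had signals of 0.237, 0.15 and 0.107. The Wnt4-/- Foxl2-/- ovaries had 0.0803, 0.0665 and 0.162, and the wild-type ovaries 0.0382, 0.0462 and 0.0641. All 6 arrays without Wnt4 lay above the 3 wild-type arrays. Of all probe sets, 13.7% (Wnt4-/-) and 18.3% (Wnt4-/- Foxl2-/-) were higher than wild type without overlap. By group mean the E13 testes, at signals of 0.108 to 0.133, ranked between these 2 groups. The highest other array, an E13 ovary at 0.161, lay within the range of the 6. The difference from wild type was 1.51 ± 0.58 (SE, limma adjusted p = 0.0832) for Wnt4-/- and 0.86 ± 0.58 (SE, limma adjusted p = 0.345) for Wnt4-/- Foxl2-/- ovaries, and neither was called. The first was called with a pseudocount of 5% of the array mean (1.07, adjusted p = 0.0159) and when the fit held only the 2 groups (1.51, adjusted p = 0.015).

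Cyp11b2, for aldosterone synthase, stayed dim in every group, with signals from 0.0277 to 0.214 over the 43 arrays. In the Wnt4-/- P0 ovaries it read 0.0972, 0.0561 and 0.0637, in the Wnt4-/- Foxl2-/- ovaries 0.0449, 0.0766 and 0.0652, and in wild type 0.0553, 0.0547 and 0.0336. The Wnt4-/- arrays lay just above the wild-type arrays, by 0.50 ± 0.34 (SE, limma adjusted p = 0.419) on the log2 scale, while the Wnt4-/- Foxl2-/- arrays overlapped them. Of all probe sets, 13.7% were higher in Wnt4-/- than in wild-type ovaries without overlap. Its 2 highest signals, 0.214 and 0.175, came from Foxl2-/- ovaries at E13.

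**Figure D2:**
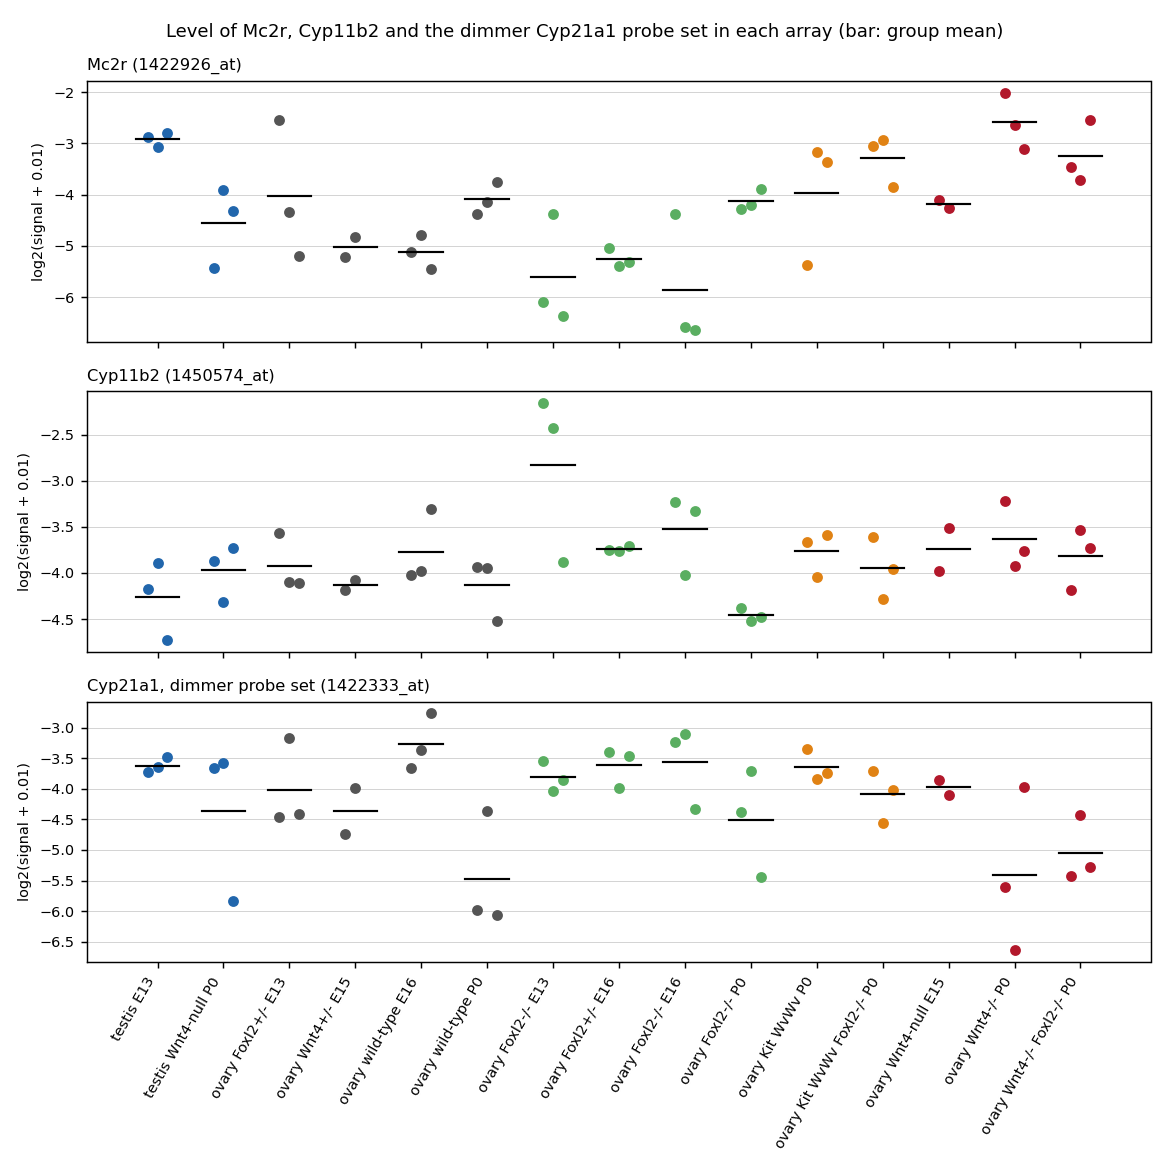
Level of Mc2r, Cyp11b2 and the dimmer Cyp21a1 probe set as log2(signal + 0.01) on the vertical axis in each of 43 arrays, by the 15 groups on the horizontal axis, with a bar at each group mean. None of the 3 reached a signal above 0.237 in any array.

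Within each group of P0 ovaries without Wnt4, the same mouse was the highest for Cyp21a1, Cyp11b1 and Mc2r. In the Wnt4-/- P0 ovaries, replicate 1 was the highest for Cyp21a1, Cyp11b1 and Mc2r, and it was the highest too for Star, Cyp11a1 and Cyp17a1. In the Wnt4-/- Foxl2-/- ovaries, replicate 3 was the highest for Cyp21a1, Cyp11b1 and Mc2r, whereas replicate 1 was the highest for Star (6.2), Cyp11a1 (4.05) and Cyp17a1 (3.37). With 3 arrays a group these are descriptions. Over the 15 group means, Pearson's r with Cyp21a1 was 0.852 for Cyp11b1, 0.505 for Mc2r and 0.187 for Cyp11b2, over points that share their arrays.

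At E15 the same direction was seen, at lower levels. Cyp21a1 was at 0.776 and 0.181 in the 2 Wnt4-null ovaries and at 0.153 and 0.0332 in the 2 Wnt4+/- controls. Cyp11b1 was at 0.261 and 0.143 in the Wnt4-null ovaries and at 0.038 and 0.0324 in the controls. For both genes the 2 mutant arrays lay above the 2 control arrays, which was the case for 27.7% of all probe sets in this comparison. The differences were 2.21 ± 0.65 (SE, limma adjusted p = 0.0743) for Cyp21a1 and 2.17 ± 0.70 (SE, limma adjusted p = 0.113) for Cyp11b1, and neither was called, against 1.37% of probe sets called higher. Mc2r (0.83, adjusted p = 0.706) and Cyp11b2 (0.38, adjusted p = 0.792) were not called either. The Cyp21a1 difference was called without control replicate 1 (3.17, adjusted p = 0.0237) or without mutant replicate 2 (3.23, adjusted p = 0.0243). Each of these leaves 1 array in a group, which is then assumed to vary like the other groups.

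The change of the Wnt4 difference between E15 and P0 was itself tested. For Cyp21a1 it was larger at P0 by 3.95 ± 0.84 (SE, limma adjusted p = 0.0105), where 1.34% of probe sets were called. For Cyp11b1 the change was 2.47 ± 0.90 (SE, limma adjusted p = 0.185). The Cyp21a1 call was lost without control replicate 1 (2.99, adjusted p = 0.127) or mutant replicate 2 (2.93, adjusted p = 0.167) at E15, where the lone array is again assumed to vary like the other groups, and when the fit held only these 4 groups (adjusted p = 0.0698). Stage, strain background, the genotype of the controls and the Foxl2 genotype of the mutants, Foxl2+/- at P0, differed together between these comparisons and cannot be told apart.

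None of the 4 genes was called when Foxl2 was lost on top of Wnt4. Cyp21a1 was -0.67 (95% interval -1.75 to 0.41, limma adjusted p = 0.751) in Wnt4-/- Foxl2-/- relative to Wnt4-/- ovaries on the log2 scale. Cyp11b1 was -0.73 (95% interval -1.89 to 0.43, limma adjusted p = 0.749). For Mc2r the value was -0.65 (95% interval -1.82 to 0.52) and for Cyp11b2 -0.18 (95% interval -0.87 to 0.51). The arrays of the 2 genotypes overlapped for all 4 genes, whereas 17.4% of all probe sets had no overlap and 0.658% were called, in either direction.

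The interaction, which compares the difference made by Foxl2 loss with and without Wnt4, was -1.16 ± 0.75 (SE, limma adjusted p = 0.822) for Cyp21a1 and -0.59 ± 0.81 (SE, limma adjusted p = 0.95) for Cyp11b1. Both intervals spanned 0, and 0.273% of probe sets were called. In it the ovaries with Wnt4 went from wild type to Foxl2-/- and those without Wnt4 from Foxl2+/- to Foxl2-/-.

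Loss of Foxl2 alone moved none of the 4 genes past the threshold at E13, E16 or P0, nor did the heterozygous loss at E16, where 2.06%, 0.407%, 0.604% and 0.00667% of probe sets were called. At P0 the Foxl2-/- ovaries had Cyp21a1 signals of 0.0486, 0.0492 and 0.0364, within the range of the wild-type ovaries, with a difference of 0.49 (95% interval -0.59 to 1.57). Cyp11b1 read 0.0644, 0.00124 and 0.0531 there. The largest of these differences, in size, was that of Mc2r at E13, -1.58 (95% interval -2.75 to -0.41, limma adjusted p = 0.13), with overlapping arrays. It was called without control replicate 3 (-2.17, adjusted p = 0.0355) or Foxl2-/- replicate 2 (-2.19, adjusted p = 0.0464). Cyp11b2 was 1.10 higher at E13 (limma adjusted p = 0.0751), and this was called with a pseudocount of 5% of the array mean (0.81, adjusted p = 0.0401), after quantile normalization (1.14, adjusted p = 0.0192), after median centring (1.16, adjusted p = 0.0328) and without Foxl2-/- replicate 3 (1.63, adjusted p = 0.00251). These E13 values come from the fit of group means, which did not use the pairing of the E13 arrays. With the replicate number as a block there, 192 instead of 928 probe sets were called.

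**Figure D3:**
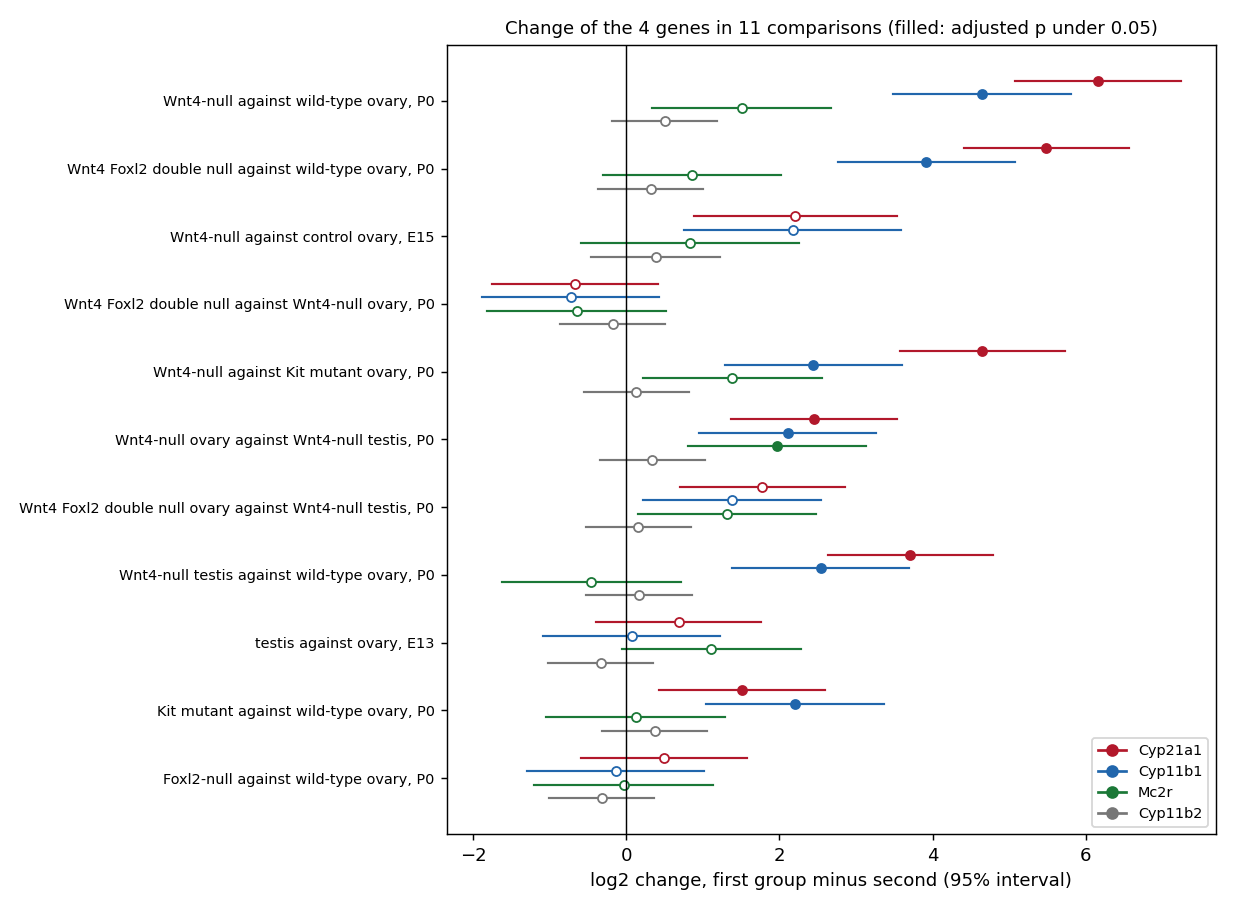
Log2 change with its 95% interval on the horizontal axis for Cyp21a1, Cyp11b1, Mc2r and Cyp11b2 in 11 comparisons on the vertical axis, with filled points where the adjusted p was under 0.05. Cyp21a1 and Cyp11b1 stand furthest from 0 in the comparisons of P0 ovaries without Wnt4 with wild-type ovaries, at 6.16 and 4.65 for Wnt4-/-.

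The Kit Wv ovaries are another P0 mutant that, like the Wnt4-/- ovaries, is Foxl2+/- and low in germ cell transcripts, with a summed signal of 8 germ cell genes of 2.11 to 9.83. Their Cyp21a1 signals were 0.0682, 0.12 and 0.122, and their Cyp11b1 signals 0.152, 0.211 and 0.183. Every Wnt4-/- array was above every Kit Wv array for both genes. Cyp21a1 was 4.65 ± 0.53 (SE, limma adjusted p = 5.9e-08) and Cyp11b1 2.44 ± 0.57 (SE, limma adjusted p = 0.00208) higher in the Wnt4-/- ovaries, where 7.07% of probe sets were called higher and 11.5% were higher without overlap. The second call was lost with a pseudocount of 0.1% of the array mean (2.50, adjusted p = 0.0565). Mc2r was 1.39 higher without overlap and was not called (adjusted p = 0.0808), but it was with a pseudocount of 5% (0.92, adjusted p = 0.0303), after quantile normalization (1.64, adjusted p = 0.0254), after median centring (1.66, adjusted p = 0.031) and without Kit Wv replicate 2 (1.79, adjusted p = 0.0453). In this comparison the median of all probe sets stood at -0.24.

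Relative to wild-type P0 ovaries, the Kit Wv ovaries had more of both transcripts, by 1.51 ± 0.53 (SE, limma adjusted p = 0.0335) for Cyp21a1 and 2.20 ± 0.57 (SE, limma adjusted p = 0.00414) for Cyp11b1. The share of all probe sets called higher was 16.2%, and the median of all probe sets was shifted by 0.28 in the same direction. The Cyp21a1 arrays overlapped, while 27.7% of probe sets were higher without overlap. Both calls were lost when the fit held only these 2 groups (adjusted p = 0.06 and 0.0571) and without wild-type replicate 2 (1.36 and 1.18, both with adjusted p = 0.115). The Cyp21a1 call was lost too with a pseudocount of 5% (0.88, adjusted p = 0.115), after quantile normalization (1.14, adjusted p = 0.136) or median centring (1.24, adjusted p = 0.0929), and without wild-type replicate 3 (1.10, adjusted p = 0.18), Kit Wv replicate 2 (1.39, adjusted p = 0.0915) or Kit Wv replicate 3 (1.38, adjusted p = 0.0936). Adding Foxl2 loss to the Kit mutation called none of the 4 genes, against 0.811% of probe sets, and for their interaction the share was 0.0178%.

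The dimmer Cyp21a1 probe set, 1422333_at, was also called in the Kit comparisons. Its signals were 0.0883, 0.0597 and 0.065 in the Kit Wv ovaries and 0.00584, 0.0384 and 0.00502 in wild type, and it was called higher in Kit Wv than in wild type (1.83, limma adjusted p = 0.0128), as was 1455691_at. In Wnt4-/- relative to Kit Wv ovaries it was called lower (-1.76, limma adjusted p = 0.0193), where 14.1% of probe sets were called lower, while 1455691_at was called higher. The first call was lost after quantile normalization (1.45, adjusted p = 0.0542) and without wild-type replicate 1 (adjusted p = 0.058) or 3 (adjusted p = 0.0705) or Kit Wv replicate 1 (adjusted p = 0.0557). The second was lost after quantile normalization (adjusted p = 0.0571) or median centring (adjusted p = 0.0518), in the fit of the 2 groups alone (adjusted p = 0.0599), and without Kit Wv replicate 1 (adjusted p = 0.0817) or Wnt4-/- replicate 1 (adjusted p = 0.0645) or 2 (-1.14, adjusted p = 0.185).

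Testes carried Cyp11a1 and Cyp17a1 at high levels with little Cyp21a1 at E13. The E13 testes had Cyp11a1 signals of 65.1, 25.2 and 17.9 and Cyp17a1 signals of 11.1, 4.42 and 3.49. Their Cyp21a1 signals were 0.315, 0.23 and 0.156, against 0.12, 0.159 and 0.133 in the E13 ovaries. Cyp21a1 overlapped between the sexes, with a difference of 0.68 ± 0.53 (SE, limma adjusted p = 0.589), while Cyp11a1 was 10.86 and Cyp17a1 6.19 higher in the testes (limma adjusted p = 3.21e-15 and 4.31e-08). Cyp11b1 (0.07, adjusted p = 0.977), Mc2r (1.11, adjusted p = 0.323) and Cyp11b2 (-0.34, adjusted p = 0.709) were not called. In this comparison 2.97% of probe sets were called higher and 12.8% were higher without overlap.

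The P0 testes, which lacked Wnt4, stood between the wild-type ovaries and the Wnt4-/- ovaries. Cyp21a1 was 3.71 ± 0.53 (SE, limma adjusted p = 1.73e-06) and Cyp11b1 2.54 ± 0.57 (SE, limma adjusted p = 0.000976) higher in them than in wild-type P0 ovaries, and their arrays did not overlap, with 13.4% of probe sets called higher, 23.7% higher without overlap and a median over all probe sets of 0.17. The Cyp11b1 signals of the P0 testes were 0.203, 0.226 and 0.267. Mc2r, at 0.0132, 0.0563 and 0.0401, was not called (-0.46, adjusted p = 0.594). Sex and loss of Wnt4 cannot be told apart in this comparison. The testis-ovary difference of Cyp21a1 was larger at P0 than at E13 by 3.03 ± 0.75 (SE, limma adjusted p = 0.00951), where 6.62% of probe sets were called. For Cyp11b1 the change was 2.47 ± 0.81 (SE, limma adjusted p = 0.0581), and it was called with the filter on low values (adjusted p = 0.0455) and without wild-type P0 ovary replicate 1 (3.05, adjusted p = 0.0154) or 3 (2.91, adjusted p = 0.0352).

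At P0 the Wnt4-/- ovaries had more Cyp21a1, Cyp11b1 and Mc2r than the testes without Wnt4. Relative to the P0 testes, the Wnt4-/- ovaries had Cyp21a1 higher by 2.45 ± 0.53 (SE, limma adjusted p = 0.0021), Cyp11b1 by 2.11 ± 0.57 (SE, limma adjusted p = 0.0129) and Mc2r by 1.97 ± 0.58 (SE, limma adjusted p = 0.0209). None of these 3 overlapped, and 5.76% of probe sets were called higher and 12.7% were higher without overlap. Of 5 listed steroid synthesis genes, Cyb5a was called higher in the Wnt4-/- ovaries (1.33, adjusted p = 5.42e-07), and the other 4, among them Cyp11a1 (-0.29, adjusted p = 0.807) and Cyp17a1 (-0.01, adjusted p = 0.995), were not called. Star, which carries cholesterol into mitochondria, was not called either (0.01, adjusted p = 0.987). Hsd17b3, which makes testosterone, was lower in the Wnt4-/- ovaries by 2.90 on the log2 scale (-2.90, adjusted p = 6.2e-05). Which cells of these testes carried it was not tested. The Mc2r call was lost without P0 testis replicate 1 (1.53, adjusted p = 0.13), Wnt4-/- replicate 1 (1.68, adjusted p = 0.0924) or replicate 2 (adjusted p = 0.0553), and the Cyp11b1 call without Wnt4-/- replicate 1 (1.72, adjusted p = 0.0787). With a pseudocount of 0.1% neither Cyp11b1 (2.15, adjusted p = 0.136) nor Mc2r (2.29, adjusted p = 0.093) was called. For the Wnt4-/- Foxl2-/- ovaries against the same testes the differences were 1.78 for Cyp21a1 (adjusted p = 0.079), 1.38 for Cyp11b1 (adjusted p = 0.247) and 1.32 for Mc2r (adjusted p = 0.281), with 0.938% of probe sets called higher. The first of these was called with a pseudocount of 5% (1.70, adjusted p = 0.0223).

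**Figure D4:**
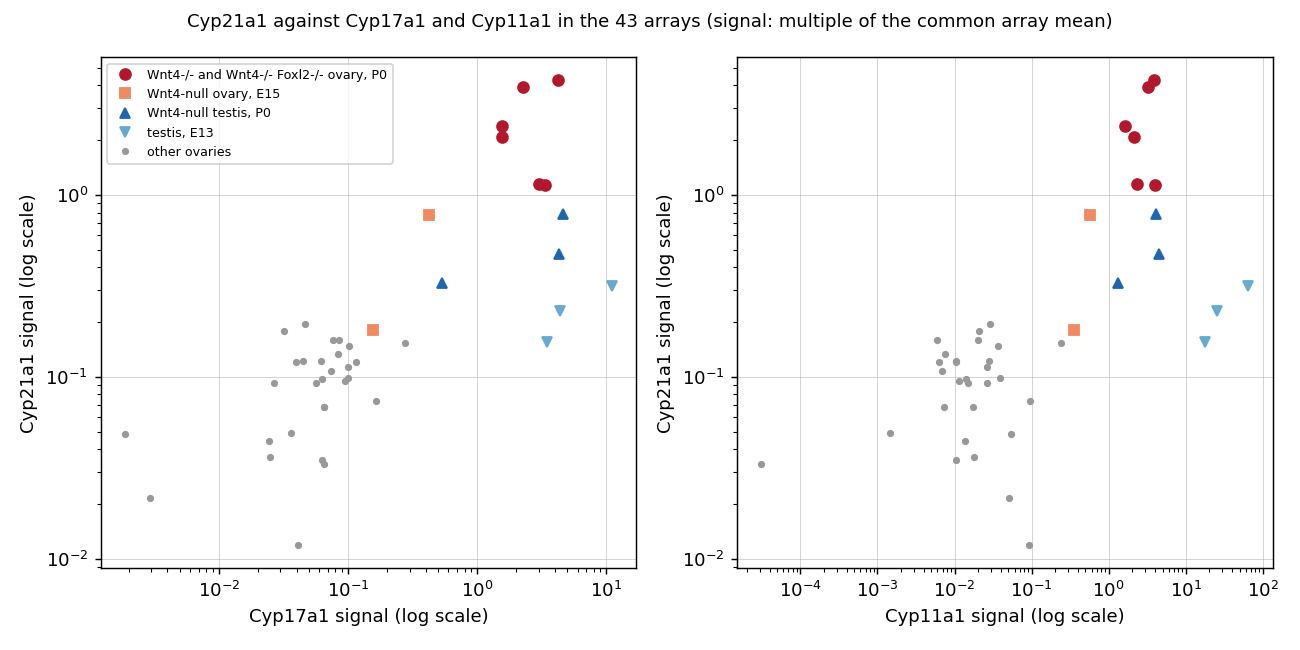
Cyp21a1 signal on the vertical axis against the signal of Cyp17a1 (left) and of Cyp11a1 (right) on the horizontal axes, all on log scales, for the 43 arrays. The 3 E13 testes lie furthest right for Cyp11a1, at 17.9 to 65.1, with Cyp21a1 at 0.156 to 0.315, while the 6 P0 ovaries without Wnt4 lie highest.

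Some other genes of steroid synthesis rose too in the Wnt4-/- P0 ovaries. The steroid synthesis list held Cyp11a1, Hsd3b1 and Fdx1, and Cyp17a1 and Cyb5a of the androgen branch. Of these 5 measured genes, 4 rose and none fell, with a median of 0.94, where 7.07% of all genes were called higher and the median gene was at -0.03. Cyp11a1, which cleaves the cholesterol side chain, had signals of 3.86, 1.62 and 2.11 against 0.0964, 0.0508 and 0.0922 in wild type and rose by 4.77. Cyp17a1, the enzyme that leads to androgens and is silent in the mature mouse adrenal, rose by 5.50, the electron carrier Fdx1 by 0.94 and Cyb5a, an electron donor that favours androgen formation, by 0.67. Hsd3b1, which makes progesterone, was at 3.54, 1.97 and 2.62 against 1.6, 1.7 and 2.03 and was not called (0.57, adjusted p = 0.346).

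Among all genes, 7.07% were called higher and 9.87% lower in Wnt4-/- relative to wild-type P0 ovaries, which holds for each count here. Of 11 measured genes of cholesterol supply, 3 rose and 1 fell, with a median of -0.04. Those that rose were Star (2.55), the lipoprotein receptor Scarb1 (1.69) and Sqle of sterol synthesis (1.04), and Npc1 fell by 0.62. Of 11 measured genes of corticotropin and angiotensin response, Mc2r among them, 4 rose and 1 fell, with a median of 0.43. They were the potassium channel gene Kcnk3 (2.48), the angiotensin receptor gene Agtr1b (1.94), Prkar2b (0.73) and Gnas (0.66), and Pde8b, for a phosphodiesterase that breaks down cAMP, fell by 1.51. Mrap, the accessory protein without which Mc2r does not reach the cell surface, was at 0.225, 0.256 and 0.239 against 0.19, 0.172 and 0.167 and was not called (0.43, adjusted p = 0.272).

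Of 9 measured genes that handle or respond to glucocorticoids, Per1 alone was called, 1.21 higher (adjusted p = 0.019), and the median was 0.50. Of 10 measured transcription regulators of the adrenogonadal primordium, Lhx9 was higher by 1.36 and Emx2 lower by 1.16, and Nr5a1 (0.33, adjusted p = 0.533) and Nr0b1 (0.31, adjusted p = 0.645) were not called. A wider list of 14 measured adrenal cortex genes, with the 4 described here among them, had 7 higher and none lower. Of all genes, 7.07% were called higher and 9.87% lower. Of those 7, only Dlk1 (1.58) was not already given above, so the count mostly repeats earlier calls.

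**Figure D5:**
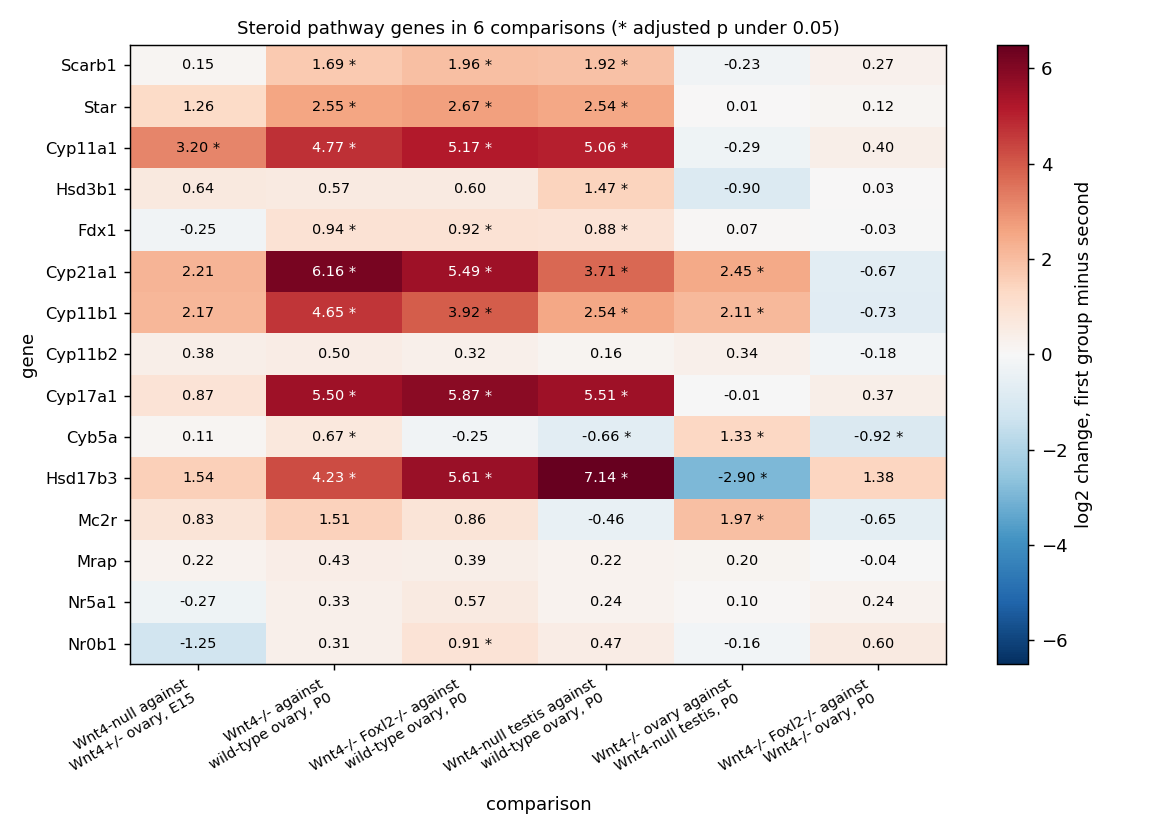
Log2 change (colour and printed value) of 15 steroid pathway genes on the vertical axis in 6 comparisons on the horizontal axis, with an asterisk where the adjusted p was under 0.05. Cyp21a1 and Cyp11b1 carry an asterisk in the column of Wnt4-/- ovary against Wnt4-null testis, whereas Star, Cyp11a1 and Cyp17a1 do not.

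At E15, of the steroid synthesis list Cyp11a1 alone was called (3.20, adjusted p = 0.0234), with signals of 0.573 and 0.35 in the Wnt4-null ovaries and of 0.238 and 3.12e-05 in the controls. The call rested on single arrays: in a check chosen after seeing the data, the difference was 0.88 (adjusted p = 0.815) without control replicate 2, the near-zero array, and the call was also lost without mutant replicate 1 (2.85, adjusted p = 0.273) or 2 (3.55, adjusted p = 0.0671). At that stage 1.5% of all genes were called higher. Cyp17a1 (0.87, adjusted p = 0.759) and Star (1.26, adjusted p = 0.1) were not called. In the Wnt4-/- Foxl2-/- relative to the Wnt4-/- ovaries, Cyb5a fell by 0.92 (adjusted p = 0.00152), and the other 4 genes of the steroid synthesis list were not called.

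Markers of other cells moved with these differences. Of 9 measured genes listed for Leydig cells, 8 were higher and none lower in the Wnt4-/- P0 ovaries. Star, Cyp11a1 and Cyp17a1 of the counts above and Hsd17b3 were among the 9. Whether each marks Leydig cells at these stages was not tested. Of all genes, 7.07% were called higher in this comparison. The summed signal of the 9 was 42.8 to 51.8 against 15.3 to 18.3 in wild type. It was 54.1 to 60.9 in the Wnt4-/- Foxl2-/- ovaries and 58.1 to 62 in the P0 testes. Of 8 measured germ cell genes 6 fell, to a sum of 11.3 to 22.9 from 53.3 to 91.5, and of 8 granulosa genes 4 fell, to 12.3 to 15.4 from 29.8 to 33.8, where 9.87% of all genes were called lower. The granulosa list holds Foxl2 itself, which is mutated in these Foxl2+/- ovaries and read 5.13 to 5.9 against 14.7 to 16.8. Of 8 Sertoli genes 3 rose, to 6.44 to 7.73 from 2.74 to 3.11. In RNA of whole gonads a change in the number of cells of a type and a change in RNA per cell cannot be told apart, and the part of these shifts in the results above was not tested.

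Markers of the adrenal medulla were measured as well. Of 11 measured medulla genes, 2 were higher and 2 lower in the Wnt4-/- P0 ovaries, and the sum was 3.02 to 4.09 against 2.99 to 3.92 in wild type. In this comparison 7.07% of all genes were called higher and 9.87% lower. Th, the first enzyme of catecholamine synthesis, was at 0.0304, 0.103 and 0.0472 against 0.45, 0.657 and 0.539 and fell by 3.11. Dbh, at 0.0296 to 0.098, and Chga, at 0.0449 to 0.0721, were dim in the Wnt4-/- ovaries, close to their range in wild type. Pnmt, which makes adrenaline, was at 0.876, 0.795 and 1.72 against 0.37, 0.581 and 0.356, and stood at 12, 11.4 and 12 in the Wnt4-/- Foxl2-/- ovaries, where the medulla sum was 12.9 to 13.4 and Th was at 0.023, 0.0981 and 0.0255. Pnmt thus made up most of that sum. The P0 testes shared this trait, with a medulla sum of 7.9 to 8.98. Relative to wild-type P0 ovaries, Pnmt was higher in them (4.04, limma adjusted p = 1.19e-08) and Th lower (-4.93, limma adjusted p = 9.38e-10). In Wnt4-/- against wild-type P0 ovaries, none of 11 kidney and mesonephros genes and none of 6 red cell genes was called. At the shares of all genes called there, 7.07% higher and 9.87% lower, lists this short can hold no call. The kidney sum was 0.466 to 0.757 against 0.647 to 0.927. The part of adrenal tissue in the dissected samples was not tested.

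The genes most like each of the 4 were ranked by Pearson's r over the 15 group means of log2(signal + 0.01), among 12848 genes for Cyp21a1 and Cyp11b1 and 12849 for Mc2r and Cyp11b2, whose highest group mean exceeded the median signal. For Cyp21a1 they were Rbbp7 (0.946), Nrk (0.946), Zfp423 (0.935), Capn6 (0.933) and Car12 (0.932). For Cyp11b1 they were Gabrb2 (0.938), S100b (0.929), Grik2 (0.922), Rims4 (0.914) and Rnpep (0.9). For Mc2r they were Farp1 (0.918), Pex19 (0.882), Dlc1 (0.832), Rasgef1b (0.823) and Tnks (0.823). For the dim Cyp11b2 the best matches reached 0.84 (Six2) and 0.838 (Slc25a29), followed by Aqp6, Hrc and Tfap2d. The lists of the 4 genes had no gene in common, and the correlations are descriptions over groups that share their arrays' processing.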

How the data were processed

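Total RNA from the gonads of single mice was extracted enzymatically, amplified in 1 linear round and hybridised to Affymetrix MOE430 v.2 arrays, 43 in all. The authors summarised each probe set with the plier method and scaled every array to a common global mean, and the deposited values are linear intensities. GCOS 1.3 appears in the submitters' processing notes with no role, and a genome build is not given in the sources used here. The intensities were divided by the common mean, 1% of that mean was added, and log2 was taken. Of 45071 probe sets, 64 controls were left out. Probe sets were named from the platform annotation (34927 with 1 gene symbol, 930 with several, 9150 with none), updated by gene ID through the RefSeq table of GRCm38.p6, and a gene other than Cyp21a1 was represented by its brightest probe set. A single limma 3.58.1 fit (R 4.3.3) of 15 group means, with variance trend, gave all 19 comparisons, with Benjamini-Hochberg adjustment over 45007 probe sets and a threshold of 0.05. The study used another program, not run here. The fit was tested on simulated data.

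The genes and lists were chosen with earlier results of these data known. The text names all probe sets of the 4 genes, the listed pathway and marker genes, and the 5 genes of highest correlation with each. Listed genes without a probe set of a single symbol, such as Akr1b7, Lhcgr and Insl3, were not measured here. Alternatives were pseudocounts of 5% and 0.1%, quantile normalization, median centring, a filter on low values, a fit without trend, a fit of the compared groups alone, the replicate number as a block, and leaving out each array.

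Replicate arrays correlated at 0.922 to 0.982 over 41 pairs. Same-numbered arrays deviated together most in the E13 Foxl2-/- and control ovaries, where r over probe sets was 0.132 to 0.158 in the 3 pairs. The numbers were taken as paired there alone. All 3 pairs of Wnt4-/- and Kit Wv P0 ovaries also had a positive r, but it was 0.0159 to 0.0545. The fit of group means did not use the E13 pairing, and only the replicate block did. The number of arrays limits the precision, and with 3 arrays against 3 an exact permutation test could not go below p = 0.1. No sequence of the 4 genes was used here.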

Additional observations from a re-analysis of the deposited data

Results flagged for a closer look

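Cyp21a1 differences between groups changed from stage to stage in 2 cases, and the genotypes compared changed with the stage. The P0 testes were Wnt4-null by the study's methods, and the Wnt4-/- P0 ovaries were also Foxl2+/-. The control ovaries were Foxl2+/- at E13, Wnt4+/- at E15 and wild-type at P0, and the strain background differed at E15. The call for E15 to P0 was lost in a fit of the compared groups alone and without single E15 arrays. The difference of Cyp21a1 between ovaries without Wnt4 and controls was 3.95 larger at P0 than at E15 on the log2 scale (limma interaction, adjusted p = 0.0105), with 3 against 3 arrays at P0 and 2 against 2 at E15, and every mutant array above every control array at both stages. Higher without overlap were 13.7% of all probe sets at P0 and 27.7% at E15, and 1.34% were called for this change. The difference of Cyp21a1 between testis and ovary was 3.03 larger at P0 than at E13 (limma interaction, adjusted p = 0.00951), with all 3 P0 testes above all 3 P0 ovaries and overlapping arrays at E13. In the P0 testes 23.7% of all probe sets were higher than in the P0 ovaries without overlap, and 6.62% were called for this change. No group held 4 arrays or more, so none was examined for an array that stands apart.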

How the results depend on the processing

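The higher Cyp21a1 and Cyp11b1 of Wnt4-/- than of wild-type P0 ovaries were called under all 8 alternatives (5.10 to 6.63 and 3.56 to 5.82) and without any single array (5.75 to 6.72 and 3.63 to 5.23). Dim levels limit Mc2r, Cyp11b2 and the dimmer Cyp21a1 probe set, which the filter on low values removed, so they have no value under it. It left 28858 probe sets.

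For Mc2r, Wnt4-/- against wild-type ovaries became called with a pseudocount of 5% (1.07), in the fit of the 2 groups alone (1.51) and with the replicate block (1.51, adjusted p = 0.0351). With the replicate block at E15, where numbers were not taken as paired, Cyp21a1 (2.21, adjusted p = 0.00299) and Cyp11b1 (2.17, adjusted p = 0.0107) became called. At E15, leaving out one array gave 1.19 to 3.23 for Cyp21a1. The block moved the calls over all probe sets from 778 to 1262 at E15, from 296 to 698 for Wnt4-/- Foxl2-/- against Wnt4-/- ovaries and from 123 to 70 for the interaction of Foxl2 with Wnt4. The interaction of Foxl2 with Wnt4 for Cyp11b2 turned to -0.0035 after quantile normalization. In the 4 comparisons of Wnt4 and Foxl2 loss, 114 of 120 values of the 4 genes kept direction and side of the threshold under such alternatives and 105 of 112 when an array was left out.

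Other uncalled values changed sign as follows. With a pseudocount of 0.1%, the dimmer Cyp21a1 probe set in Wnt4-/- against wild type came to -0.44, Cyp11b1 in Foxl2-/- against wild type at P0 to 0.13 and Cyp11b1 in the interaction of Foxl2 with Kit to -0.0497. After quantile normalization, the dimmer probe set came to -0.03 in Wnt4-/- against wild type and to -0.0503 in Foxl2-/- at E13, Cyp11b2 in the P0 testis comparison to -0.16, and Mc2r to 0.0553 in Foxl2+/- at E16 and -0.19 in Kit Wv against wild type. After median centring, Cyp11b2 in the P0 testis comparison came to -0.03, Mc2r in Kit Wv against wild type to -0.15, Mc2r in Foxl2-/- at P0 to 0.00019 and Cyp11b1 in the E13 testis comparison to -0.0044.

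Leaving out one array turned the sign of these uncalled values within the ranges given. In Wnt4-/- Foxl2-/- against Wnt4-/- ovaries they were Cyp11b2 (-0.33 to 0.025) and the dimmer Cyp21a1 probe set (-0.26 to 1.08), and in the interaction of Foxl2 with Wnt4 Cyp11b1 (-1.46 to 0.43), Cyp11b2 (-0.0022 to 0.35) and the dimmer probe set (-1.22 to 0.11). The dimmer probe set also turned in Wnt4-/- against wild type (-0.65 to 0.69), in the change from E15 to P0 (-1.04 to 0.30) and in Foxl2-/- at E13 (-0.019 to 0.62) and E16 (-0.52 to 0.095). Cyp11b2 turned in Wnt4-/- against Kit Wv (-0.076 to 0.27), in the change from E15 to P0 (-0.12 to 0.35), in Wnt4-/- Foxl2-/- against testes (-0.014 to 0.34), in the P0 testis comparison (-0.027 to 0.33), in Foxl2+/- at E16 (-0.099 to 0.26) and in the interaction with Kit (-0.028 to 0.33). Cyp11b1 turned in the E13 testis comparison (-0.077 to 0.19), in Foxl2-/- at P0 (-1.16 to 0.73), in Kit Wv Foxl2-/- against Kit Wv (-0.12 to 0.20) and in the interaction with Kit (-0.65 to 1.24). Mc2r turned in Foxl2+/- at E16 (-0.30 to 0.037), in Foxl2-/- at P0 (-0.17 to 0.14), in Kit Wv (-0.28 to 0.82) and in Kit Wv Foxl2-/- against Kit Wv (-0.0059 to 1.09), and Cyp21a1 in Foxl2+/- at E16 (-0.55 to 0.079).

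Over all alternatives the calls ranged from 3546 to 5791 (5698 in the fit described) for Wnt4-/- against wild type, from 205 to 1262 (778) at E15, from 140 to 698 (296) for Wnt4-/- Foxl2-/- against Wnt4-/-, from 171 to 1017 (601) for the change from E15 to P0, from 5677 to 9706 (9523) against Kit Wv, from 3046 to 5875 (5450) and from 172 to 922 (711) for Wnt4-/- and Wnt4-/- Foxl2-/- ovaries against testes, from 7553 to 11473 (11403) and from 1715 to 3012 (2792) for testes at P0 and E13, from 4757 to 11849 (11741) for Kit Wv, and from 3 to 3948 (928), from 70 to 386 (183) and from 18 to 377 (272) for Foxl2-/- at E13, E16 and P0. For the interaction of Foxl2 with Wnt4 they ranged from 70 to 172 (123), for the change of the testis-ovary difference from 1974 to 3428 (2980), for Foxl2+/- at E16 from 0 to 21 (3), for Kit Wv Foxl2-/- against Kit Wv from 2 to 499 (365) and for the interaction with Kit from 0 to 35 (8).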
